A study of Mus musculus with 2 samples.

Results

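The Hox genes of the 4 mouse clusters were compared between mutant and control ureters. Members were a list of genes that the array design names Hoxa, Hoxb, Hoxc or Hoxd with a paralogue number. The list was chosen with earlier results of these data known, so it was not tested as a set. The list held 38 genes on 43 probes, and 34 of them, on 39 probes, were among the 20923 genes tested. Mutant ureters were Pax2-cre/+ with Fgfr1(fl/?) and Fgfr2(fl/fl), and control ureters carried Fgfr1(fl/?) and Fgfr2(fl/?) without the Cre. All came from NMRI mouse embryos at stage E13.5. A question mark stands for a wild-type or a floxed allele, and the submitters collected mutant ureters of both Fgfr1 states together. Every mutant thus carried a floxed Fgfr1 allele. A mutant pool mixes Fgfr2 loss beside a floxed and a wild-type Fgfr1 allele with loss of both receptors. Fgfr1 and Fgfr2 encode receptors for fibroblast growth factors. The sources used here do not give the number of embryos in a pool or the ureteric cells in which the Cre acts. On array 1 the pools were female, the mutant labelled with Cy5 and the control with Cy3. On array 2 they were male and the dyes were swapped. A difference between the 2 arrays can therefore be one of sex, dye or pool, and these cannot be told apart.

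Hox genes encode homeodomain transcription factors that give cells their position along the body axis. They lie in 4 clusters, and within a cluster the genes with low paralogue numbers are switched on earlier and further forward than those with high numbers. Genes with the same number in different clusters are paralogues and often share functions. In the urogenital tract, the paralogues of group 11 are needed for kidney induction and those of group 13 for the lower ureter and its outlets. Hox proteins bind DNA with partners of the TALE class such as Pbx and Meis, and Polycomb and trithorax proteins hold the clusters silent or active.

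Each value below comes from a 60-base probe printed 4 times on an array. The probe of Hoxb8 is shown first because that gene had the largest difference. It lies at chr11:96146576-96146635 on the plus strand of mm9, the build of the array design. Its last 30 bases, at chr11:96146606-96146635, hold the letters of a polyadenylation signal, in capitals.
Hoxb8: gagttacAATAAAgtttacaagcgagaacc
The 2 probes of Hoxa13 are shown because their ratios had opposite signs on the male array. Both lie on the minus strand, and their first 30 bases are at chr6:52209010-52209039 for the brighter and chr6:52208886-52208915 for the dimmer one.
Hoxa13 brighter: acaaattcattaccaaggacaaacggagga
Hoxa13 dimmer: gaccactagttaatggattaaaaggtggag
The brighter probe of Hoxb3 is shown because it stands for a gene with a lower ratio on both arrays. It lies on the plus strand, with its first 30 bases at chr11:96209002-96209031.
Hoxb3: tattgtattctagacaagagctgtagattt
The brighter probe of Hoxa3 and the probe of the antisense transcript Hoxaas2 share 40 bases on opposite strands. The 30 bases at chr6:52119117-52119146 are shown from both, minus strand first.
Hoxa3: gctagatttgttttgagagttttacattcc
Hoxaas2: ggaatgtaaaactctcaaaacaaatctagc
Between probes of different Hox genes the longest shared run was 15 bases. The dimmer probe of Hoxb3 shared a run of 20 bases with a probe of another gene, Nkx1-1. The median GC content of the probes that stand for the tested genes was 40.0% for Hoxa, 39.2% for Hoxb, 38.3% for Hoxc and 40.0% for Hoxd.

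All 39 tested Hox probes were well above background in all 4 channels, so none was tested on the strength of 1 group alone. The other 4 genes were dim. The Hoxb1 probe was well above background on 4 of 4 spots in the male mutant channel alone. Hoxb13 was so on 4 of 4 spots in both female channels and on 0 spots in both male channels. Hoxc13 was so on 4 spots in the male mutant channel and on 1 spot in the male control channel, and Hoxc12 on 0 spots in every channel. Genes of every paralogue number from 1 to 13 were thus measured in ureters of both genotypes.

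More of the Hox genes were lower than higher in the mutant ureters, and none passed the test after adjustment. On the log2 scale of mutant over control, 18 of the 34 tested Hox genes were below 0 on both arrays, where 21.4% of all genes were. Another 3 were above 0 on both, against 22.1% of all genes, and 13 had opposite signs, against 56.5% of all genes. On the female array 22 were lower, beside 50.1% of all genes, and on the male array 27 were lower, beside 49.2%. The median ratio of the Hox genes was -0.09 on the female array and -0.36 on the male array, beside -0.00051 and 0.0053 over all genes. By limma with Benjamini-Hochberg adjustment over all genes, 0 Hox genes passed an adjusted p of 0.05, as 6 of all genes did (0.0287%), none of them lower. At an unadjusted limma p under 0.05 there were 8 Hox genes, all lower, where 1.43% of all genes were lower and 2.61% higher at that level. With 2 arrays, a p-value rests on 1 residual degree of freedom of the gene and 6.32 prior ones taken from all genes. It thus reflects mostly how far these arrays differ from each other over all genes, which may be technical. In whole ureters, fewer cells of a type and less RNA per cell cannot be told apart.

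The lower Hox genes were mostly those of the Hoxb and Hoxd clusters. In Hoxb, 7 of 8 tested genes were lower on both arrays and none was higher on both, with a median of -0.24 on the female and -0.52 on the male array. In Hoxd, 8 of 9 were lower on both and none higher on both, with medians of -0.26 and -0.54. In Hoxa, by contrast, 2 of 10 were lower on both, 1 was higher on both and 7 had opposite signs, with medians of 0.02 and -0.18. In Hoxc, 1 of 7 was lower on both and 2 were higher on both, with medians of 0.03 and 0.06. Over all genes, 21.4% were lower on both arrays, 22.1% were higher on both and 56.5% had opposite signs. The difference between the clusters was noticed in these values and was not tested. Of the 8 genes with an unadjusted p under 0.05, 3 belong to Hoxb (Hoxb3, Hoxb8 and Hoxb9), 4 to Hoxd (Hoxd1, Hoxd3, Hoxd4 and Hoxd11) and 1 to Hoxa (Hoxa13). Of these, Hoxb3, Hoxd11 and Hoxa13 each had a second, dimmer probe. Its unadjusted limma p, from a fit over probes, was 0.42, 0.33 and 0.57 in that order.

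**Figure D1:**
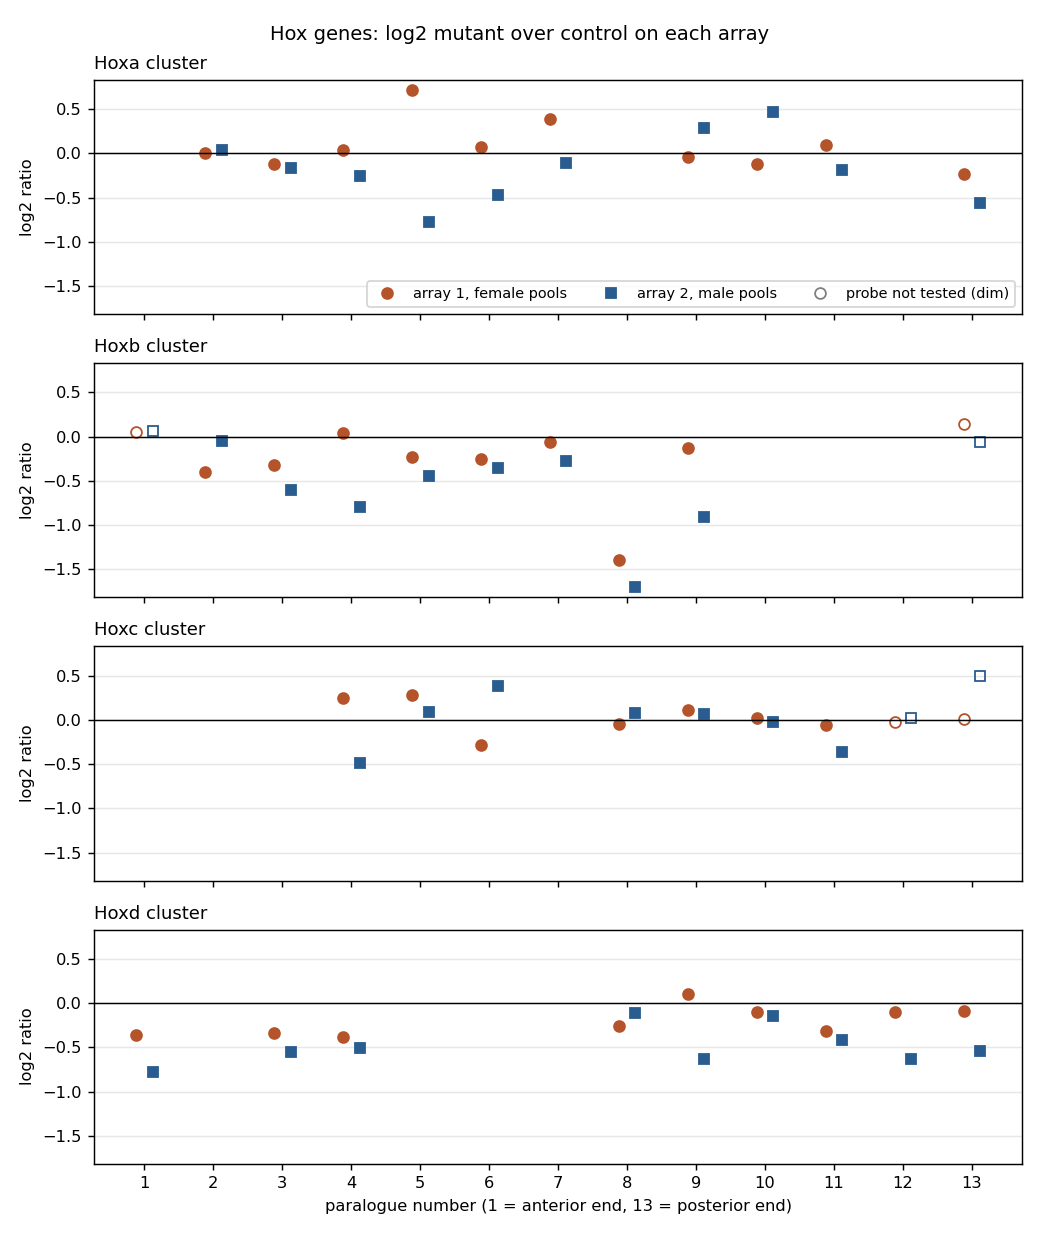
Log2 ratio of mutant over control (vertical axis) for each Hox gene by paralogue number (horizontal axis), in a panel for each cluster, with circles for the female array and squares for the male array. Open symbols are probes that were too dim to test. In Hoxb 7 of 8 and in Hoxd 8 of 9 tested genes lie below 0 on both arrays, and Hoxb8 lies lowest at -1.40 and -1.70.

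By position along the clusters, 5 of 6 anterior genes (paralogue numbers 1 to 3), 6 of 15 central genes (numbers 4 to 8) and 7 of 13 posterior genes (numbers 9 to 13) were lower on both arrays. Of all genes, 21.4% were lower on both. The clusters enter the counts by position unequally, since Hoxb and Hoxd hold 4 of the 6 anterior genes. Within Hoxb, 2 of 2 anterior, 4 of 5 central and 1 of 1 posterior genes were lower on both, and within Hoxd 2 of 2, 2 of 2 and 4 of 5. Within Hoxa the counts were 1 of 2, 0 of 4 and 1 of 4, and within Hoxc 0 of 4 central and 1 of 3 posterior genes. No difference by position was tested. Paralogues of 1 number in different clusters could differ in sign. In group 3, Hoxa3, Hoxb3 and Hoxd3 were all lower on both arrays, whereas in group 4 only Hoxd4 was so among 4 genes. In group 9, Hoxb9 was lower on both, Hoxc9 was higher on both, and Hoxa9 and Hoxd9 had opposite signs.

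Hoxb8 had the lowest mean ratio of all 20923 genes. This central Hoxb gene acts in the patterning of the spinal cord and in blood progenitors. Its normalised log2 channel level was 10.92 in mutant and 12.31 in control female ureters, and 9.82 in mutant and 11.52 in control male ureters. Both mutant levels lay below both control levels. The ratios were -1.40 and -1.70, with single spots from -1.5 to -1.22 on the female and from -1.97 to -1.5 on the male array. The mean was -1.55 ± 0.21 (SD, n = 2 arrays), so that the mutant level was 0.343 times the control level. The 95% interval from the limma fit was -1.91 to -1.18. That interval rests mostly on 6.32 prior degrees of freedom taken from all genes, beside 1 residual degree from the 2 arrays. The adjusted limma p was 0.0515, over the threshold of 0.05. Under 9 other processing settings the adjusted limma p ranged from 0.0182 to 1.0 and passed the threshold in 3. Hoxb8 was the single Hox gene at least 1.5-fold lower on both arrays, as 0.0956% of all genes were, and 0 Hox genes were as much higher on both, as 0.296% were.

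The neighbours of Hoxb8 differed less. Hoxb9, on its posterior side at chr11:96137748-96137807, had levels of 10.98 in mutant and 11.10 in control female ureters, and of 10.31 in mutant and 11.22 in control male ureters. Its ratios were -0.13 and -0.91 (mean -0.52 ± 0.55, SD), so most of the difference was on the male array. Hoxb7, on the anterior side at chr11:96151211-96151270, had ratios of -0.06 and -0.27. Hoxb7 is expressed in the ureteric bud epithelium, and its promoter is widely used to mark that tissue.

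Among the other Hoxb genes the male array showed the larger difference in all but Hoxb2. Hoxb3, an anterior gene that acts in hindbrain segments and pharyngeal arches, had levels of 10.59 in mutant and 10.91 in control female ureters, and of 10.25 in mutant and 10.85 in control male ureters. Its ratios were -0.32 and -0.60, while the dimmer probe gave 0.0010 and -0.26. Hoxb4, known for its effect on blood stem cells, had levels of 11.22 in mutant and 11.18 in control female ureters, and of 10.50 in mutant and 11.30 in control male ureters. It was the 1 tested Hoxb gene with opposite signs, 0.05 on the female and -0.80 on the male array. Hoxb5 had ratios of -0.23 and -0.44, and Hoxb6 of -0.25 and -0.36. Hoxb2 had -0.40 and -0.05.

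Hoxd1, Hoxd3 and Hoxd4, the 3 genes at the anterior end of the Hoxd cluster, were each lower by more than 0.321928 on the log2 scale on both arrays. With Hoxb8 they were the 4 Hox genes past that size, as 0.731% of all genes were, and 0 Hox genes were higher by as much on both, as 1.34% of all genes were. Hoxb3, at -0.321916, and Hoxd11, at -0.31, lay just short of the limit on the female array. Hoxd1, which acts in sensory neurons, had levels of 8.37 in mutant and 8.73 in control female ureters, and of 7.87 in mutant and 8.65 in control male ureters. Its mean ratio was -0.57 ± 0.29 (SD, n = 2 arrays), with an adjusted limma p of 0.941. Hoxd3, which patterns the upper neck vertebrae, had levels of 10.97 in mutant and 11.31 in control female ureters, and of 10.80 in mutant and 11.35 in control male ureters. In all 3 genes both mutant levels lay below both control levels. Hoxd4, also a gene of the neck vertebrae, had levels of 12.39 in mutant and 12.76 in control female ureters, and of 12.08 in mutant and 12.58 in control male ureters. The ratios were -0.34 and -0.55 for Hoxd3, and -0.38 and -0.50 for Hoxd4.

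**Figure D2:**
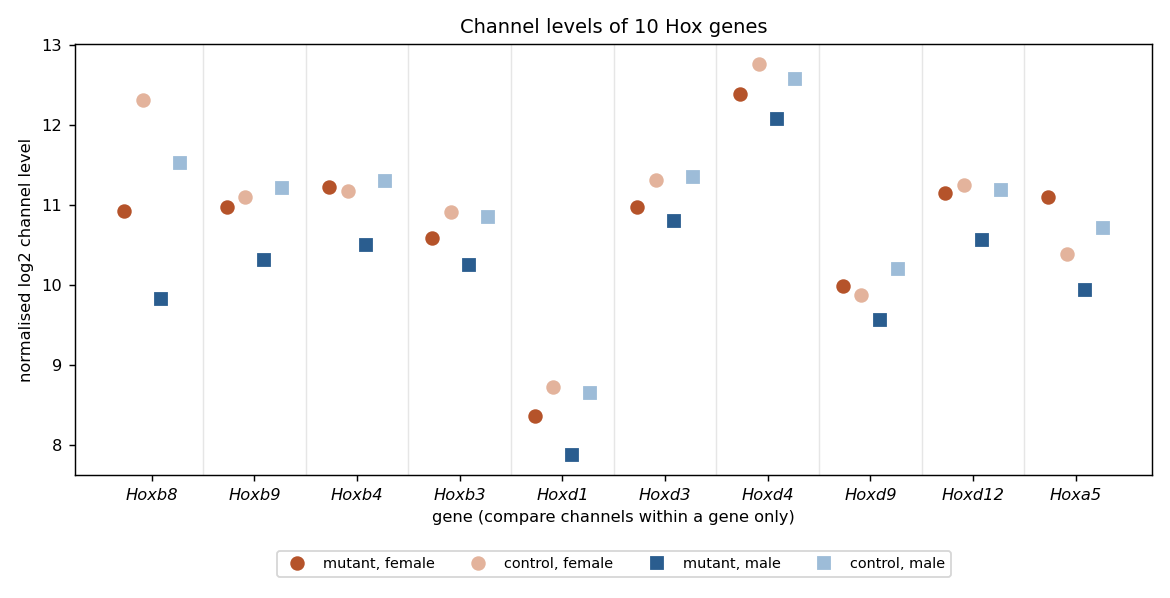
Normalised log2 channel level (vertical axis) of 10 Hox genes (horizontal axis) in female mutant, female control, male mutant and male control ureters, 1 pool each. Channels may be compared within a gene only. Hoxb8 is lower in the mutant, with ratios of -1.40 and -1.70, and Hoxa5 has 0.71 in female and -0.77 in male ureters.

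The posterior Hoxd genes, which pattern limbs, genitalia and the hind end of the gut and urinary tract, had smaller or less even differences. Hoxd11, which acts with Hoxa11 in kidney induction, had ratios of -0.31 and -0.42, and its dimmer probe gave -0.32 and -0.0048. Hoxd12 had levels of 11.15 in mutant and 11.25 in control female ureters, and of 10.56 in mutant and 11.19 in control male ureters. Hoxd9 had levels of 9.99 in mutant and 9.88 in control female ureters, and of 9.57 in mutant and 10.20 in control male ureters. Both were at least 1.5-fold lower on the male array alone, at -0.63, while their female ratios were -0.10 for Hoxd12 and 0.11 for Hoxd9. Hoxd13, which acts at the distal end of the tract, had -0.09 and -0.54, and Hoxd10 had -0.10 and -0.15. The central gene Hoxd8 had -0.26 and -0.11.

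In the Hoxa cluster 7 of 10 tested genes had opposite signs on the 2 arrays, beside 56.5% of all genes. Hoxa5, needed for lung and trachea development, had levels of 11.10 in mutant and 10.39 in control female ureters, and of 9.94 in mutant and 10.72 in control male ureters. The mutant was thus higher in the female pools and lower in the male pools, with ratios of 0.71 and -0.77. All 4 spots had the sign of their array, from 0.61 to 0.84 on the female and from -0.93 to -0.49 on the male array. Hoxa5 was the single Hox gene at least 1.5-fold apart in opposite ways, as 0.0956% of all genes were. The 3 other tested central Hoxa genes also had positive female and negative male ratios. Hoxa4 had 0.04 and -0.25, Hoxa6 had 0.08 and -0.47, and Hoxa7 had 0.39 and -0.11.

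Some Hoxa genes had probes that disagreed. Hoxa13, a regulator of the distal urogenital tract and gut, had ratios of -0.23 and -0.56 on the brighter probe, with levels of 8.53 in mutant and 8.76 in control female ureters and of 8.01 in mutant and 8.57 in control male ureters. Its dimmer probe gave -0.19 and 0.41, so the sign on the male array depends on the probe. The brighter probe of Hoxa9 had -0.04 and 0.29 and the dimmer one 0.06 and -0.31. Hoxa9 levels on the brighter probe were 9.16 in mutant and 9.21 in control female ureters, and 9.28 in mutant and 8.99 in control male ureters. The brighter probe of Hoxa3, which overlaps the antisense transcript, had -0.12 and -0.16. Its levels were 12.41 in mutant and 12.54 in control female ureters, and 12.02 in mutant and 12.18 in control male ureters. The dimmer Hoxa3 probe, at chr6:52149150-52149208 between the probes of Hoxa4 and Hoxa5, gave 0.18 on both arrays. Hoxa11, which is required for ureteric bud outgrowth together with its paralogues, had 0.10 and -0.19. Hoxa10 had -0.11 and 0.46, and Hoxa2 had 0.0029 and 0.04.

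The Hoxc genes had mean ratios near 0, from -0.21 to 0.19. Hoxc5 (0.29 and 0.08) and Hoxc9 (0.12 and 0.06) were higher on both arrays, and Hoxc11 (-0.05 and -0.36) was lower on both. Hoxc4 had 0.25 and -0.49, and Hoxc6 had -0.29 and 0.39, so these central genes had opposite signs. Hoxc8 (-0.04 and 0.08) and Hoxc10 (0.03 and -0.02) were the nearest to 0. Levels of Hoxc8 were low, from 6.62 to 6.90, though above background in every channel, and those of Hoxc10 were 10.24 to 10.35. None of the 7 had an unadjusted limma p under 0.05.

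Across the 34 genes, the ratios of the 2 arrays correlated at 0.40 (Pearson) and 0.21 (Spearman). Without Hoxb8 the values were 0.0037 and 0.14 over 33 genes, so the Pearson value rests on that gene. Over all genes they were -0.024 and -0.13. Genes share the pools and the array and are not independent replicates. The SD of the ratios over all genes was 0.21 on the female and 0.32 on the male array. The median SD of a Hox probe's repeated spots was 0.11 on the female and 0.12 on the male array.

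**Figure D3:**
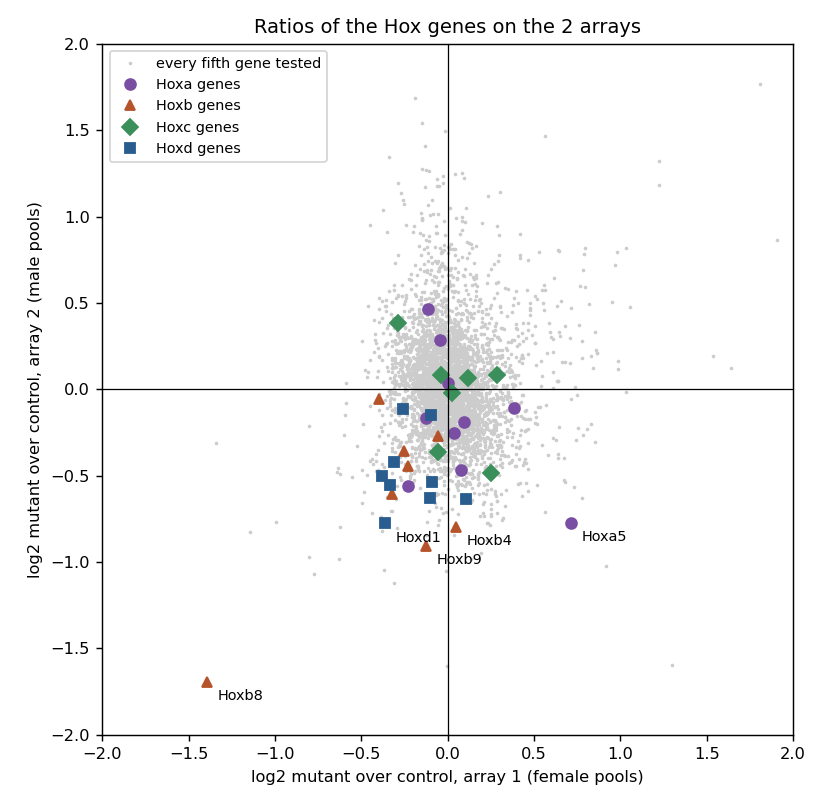
Log2 ratio of mutant over control on the female array (horizontal axis) and on the male array (vertical axis) for the Hox genes by cluster and for a regular sample of all genes tested (grey); a few grey genes lie beyond the axes. Most Hoxb and Hoxd genes lie at the lower left, Hoxb8 far out at -1.40 and -1.70, and Hoxa5 lies at 0.71 and -0.77.

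Transcripts within the clusters that do not code for Hox proteins were read by their own probes. Hoxb5os, antisense to the Hoxb cluster at chr11:96152394-96152453 on the minus strand, had levels of 10.95 in mutant and 11.73 in control female ureters, and of 10.88 in mutant and 11.30 in control male ureters. Its ratios were -0.78 and -0.42, and both mutant levels lay below both control levels. The adjusted p from limma across all genes was 0.850. The probes of Hoxd3os1 had -0.29 and -0.03, and -0.22 and -0.26. In the same cluster Haglr, a long non-coding RNA beside Hoxd1, had 0.11 and 0.17, while AI448005 had -0.32 and -0.35 and Gm14424 had -0.19 and -0.28. Inside Hoxb, Gm53 had -0.05 and -0.39. Inside Hoxa, 9530018H14Rik had -0.14 and -0.20, and inside Hoxc, Gm4200 had 0.05 and 0.03. Hoxa11os, antisense to Hoxa11, had 0.20 and 0.08, Hoxaas3 had 0.17 and -0.24, and Hoxaas2 had -0.01 and -0.15. The probe of Hottip, a non-coding RNA at the posterior end of Hoxa, was too dim to test.

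Of the named genes within 200000 bases outside the clusters, both arrays put 2 of 11 lower, beside 21.4% of all genes, and 4 higher, beside 22.1%. Beside Hoxb these were 1 lower and 2 higher of 5, and beside Hoxd 0 lower and 1 higher of 3, counts too small to set against those of the clusters. Beside Hoxd, Evx2 had 0.14 and 0.15, Lnpk had -0.28 and 0.05, and Mtx2 had -0.30 and 0.65. Evx1, a homeobox gene next to Hoxa13, had levels of 7.35 in mutant and 7.22 in control female ureters, and of 6.23 in mutant and 7.36 in control male ureters, with ratios of 0.13 and -1.13. Its male mutant level lay within the range of Hoxc12, 6.17 to 6.28, a gene above background in no channel. Cbx5, which encodes a heterochromatin protein and lies beside Hoxc, had -0.16 and -0.69.

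The promoters of Hoxb8, Hoxd1, Hoxd3 and Hoxd4, the 4 Hox genes lower by more than 0.321928 (log2) on both arrays, are shown as the 250 bases before the annotated start, from RefSeq on GRCm38.p6, all on the plus strand. Of the 38 Hox genes, 22 had an entry, in 24 entries. They lie at chr11:96281655-96281904 for Hoxb8, chr2:74762730-74762979 for Hoxd1, chr2:74711743-74711992 for Hoxd3 and chr2:74721728-74721977 for Hoxd4. Capitals mark 3 motifs searched on both strands, which do not overlap each other here. They are TTTATG, a core bound by Cdx and posterior Hox proteins, CGGAAG, a core bound by ETS factors, which act downstream of fibroblast growth factor receptors, and TGATNNAT, a joint Pbx and Hox core.
Hoxb8: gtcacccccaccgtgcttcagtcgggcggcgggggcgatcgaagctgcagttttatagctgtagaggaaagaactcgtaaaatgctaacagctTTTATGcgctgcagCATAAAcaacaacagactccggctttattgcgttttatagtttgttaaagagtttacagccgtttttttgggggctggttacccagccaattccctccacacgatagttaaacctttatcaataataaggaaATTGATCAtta
Hoxd1: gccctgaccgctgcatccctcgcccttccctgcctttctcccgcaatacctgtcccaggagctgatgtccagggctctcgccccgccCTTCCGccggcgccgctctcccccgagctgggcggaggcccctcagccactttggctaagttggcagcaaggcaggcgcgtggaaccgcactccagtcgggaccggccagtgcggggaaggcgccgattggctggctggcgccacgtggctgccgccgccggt
Hoxd3: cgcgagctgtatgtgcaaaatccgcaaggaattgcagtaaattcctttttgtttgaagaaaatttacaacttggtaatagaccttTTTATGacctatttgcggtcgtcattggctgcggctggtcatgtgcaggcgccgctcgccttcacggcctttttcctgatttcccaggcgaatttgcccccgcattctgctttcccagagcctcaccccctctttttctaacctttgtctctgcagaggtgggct
Hoxd4: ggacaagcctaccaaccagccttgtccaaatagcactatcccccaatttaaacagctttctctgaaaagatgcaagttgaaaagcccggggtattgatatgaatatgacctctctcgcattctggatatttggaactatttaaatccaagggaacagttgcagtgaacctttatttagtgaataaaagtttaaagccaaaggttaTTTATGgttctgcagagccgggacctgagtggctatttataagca
TTTATG begins 157 and 143 bases before the start in Hoxb8, on opposite strands, 165 bases before it in Hoxd3 and 45 in Hoxd4. It was in 5 of the 24 Hox entries and in 10.8% of all 32851 promoters of this length. CGGAAG was in 2 Hox entries and in 13.6% of all promoters, and lies 163 bases before the start in Hoxd1 on the minus strand. TGATNNAT was in 4 Hox entries and in 7.68% of all promoters, and lies 11 bases before the start in Hoxb8. A match is a description of the letters in this window.

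The partners and regulators of Hox genes were read from 6 lists, in which no gene passed the limma test. The counts of these lists stand beside 21.4% of all genes lower and 22.1% higher on both arrays. Among TALE cofactors, 5 of 11 tested were lower on both arrays and 0 higher, and the median mean ratio was -0.02, beside 0.0044 over all genes. The largest were Tgif2, a TALE repressor (-0.18 and -0.35), Meis3 (-0.09 and -0.22) and Pknox1 (-0.09 and -0.17). Among Polycomb genes, 7 of 19 were lower on both and 1 was higher (median -0.09). Pcgf2, a subunit of the repressive complex, had -0.06 and -0.47, and Phc3 had -0.05 and 0.57. Of 10 trithorax and MLL genes, which keep Hox genes active, 0 were lower on both and 1 was higher (median -0.06). The largest of these were Kdm6b (0.08 and -0.51), Rbbp5 (0.10 and 0.23) and Kmt2b (0.21 and -0.47).

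Signals that act upstream of Hox genes in the body axis had 12 of 16 listed members tested, of which 3 were lower on both arrays and 0 higher (median -0.08). Lin28b, an RNA-binding protein of early stages, had -0.18 and -0.53, Lin28a had -0.07 and 0.55, and Cyp26b1, which breaks down retinoic acid, had 0.39 and -0.84. Of the Cdx, Evx and other relatives outside the clusters, 3 of 11 were bright enough to test. These were Evx1 and Evx2, given above, and Gsx1 with -0.21 and -0.24. Cdx1, Cdx2 and Cdx4, which activate Hox genes in the tail bud, were not.

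Kidney and ureter genes tied to Hox function were lower on both arrays in 6 of 14 cases and higher in 3 (median mean ratio -0.05). Six2, a nephron progenitor gene that Hox11 proteins activate, had levels of 10.21 in mutant and 11.32 in control female ureters, and of 9.98 in mutant and 10.20 in control male ureters. Its ratios were -1.12 and -0.22. Gdnf, the growth factor that draws out the ureteric bud and another target of Hox11 proteins, had -0.67 and -0.45, with an adjusted p of 0.882 from limma across all genes. Gata3, a transcription factor of the ureteric epithelium, had -0.30 and -0.62.

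Markers of cell types were read from 11 lists. Their counts stand beside 21.4% of all genes lower and 22.1% higher on both arrays. Ureteric mesenchyme genes were lower on both arrays in 10 of 11 cases and higher in 0 (medians -0.22 and -0.49). Their mean level was 12.5 in mutant and 12.8 in control female ureters, and 12.3 in mutant and 12.8 in control male ureters. Ureteric epithelium genes were lower on both in 8 of 14 cases and higher in 1 (medians -0.28 and -0.12). Leukocyte and macrophage genes were higher on both in 13 of 17 cases and lower in 0 (medians 0.64 and 0.58). Their mean level was 10.1 in mutant and 9.5 in control female ureters, and 10.2 in mutant and 9.5 in control male ureters. Of 14 erythroid genes 11, of 11 skeletal muscle genes 9 and of 14 neuron and neural crest genes 11 were also higher on both. Lower on both were 0, 0 and 2 of these. Of 12 metanephric mesenchyme and nephron genes, 1 was lower and 4 were higher on both. Of 9 gonad and adrenal genes 1 was lower and 4 higher, and of 9 bladder and urogenital sinus genes 2 and 5. Of 5 hindgut genes 0 were lower and 1 higher, and of 9 somite, sclerotome and cartilage genes 2 and 4. All 11 mesenchyme and all 14 epithelium genes listed were bright enough to test. The part that shifts in cell types had in the Hox ratios was not tested.

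The Fgfr2 probes had ratios of 0.27 and 0.06, and 0.08 and 0.09. Fgfr1 probes had 0.03 and 0.51, 0.17 and -0.16, and 0.27 and -0.44, so they differed in sign on the male array. Where the floxed segments lie relative to these probes is not known here, and a probe outside the deleted part checks nothing. In the mutant channels 67.9% and 77.0% of all probes were well above background, in the control channels 72.2% and 69.6%, for the female and male arrays in that order. No spot was saturated. The number of arrays limits the precision.

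The counts by cluster were recomputed under 9 other processing settings. Hoxd had 8 or 9 of 9 genes lower on both arrays and Hoxb 7 or 8 under all of them, of 8 genes tested or of 10 without the filter on dim probes. With each array centred on its median in place of loess, both arrays put 38.1% of all genes lower and 15.5% higher, beside 21.4% and 22.1% with loess. Under that setting 25 of 34 Hox genes were lower on both, 8 of 8 in Hoxb, 9 of 9 in Hoxd, 5 of 10 in Hoxa and 3 of 7 in Hoxc.

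**Figure D4:**
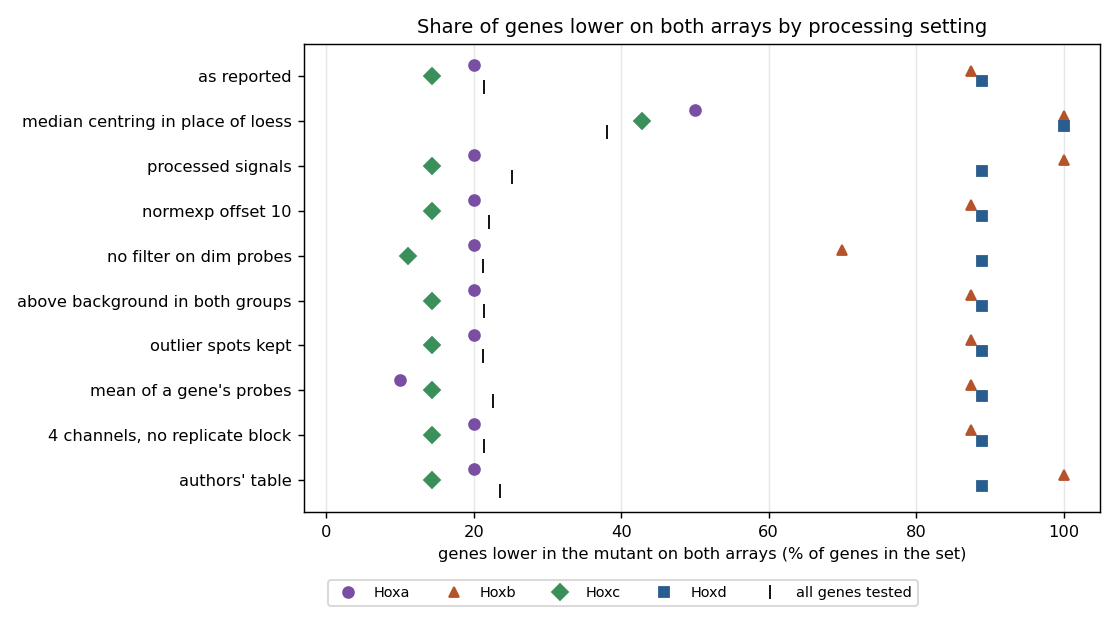
Share of genes lower in the mutant on both arrays (horizontal axis, percent of the genes in the set) for each Hox cluster and for all genes tested, under the reported setting and 9 others (vertical axis). Hoxb and Hoxd lie to the right of all genes tested under every setting shown, at 87.5% and 88.9% as reported beside 21.4% of all genes.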

How the data were processed

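RNA of mutant and control ureters was hybridised on 2 two-colour Agilent arrays on 1 slide, with 150 ng of labelling input. The submitters' processing notes name Agilent Feature Extraction 10.7.3.1 as the scanner software. Per the file headers, the deposited mean and background signals are intensity values that were not normalised. The processed signals, an alternative here, had been background-subtracted, detrended and dye-normalised by LOWESS. The table the authors deposited holds a score, written as a linear fold with a sign, with unknown steps and centring. Its sign was mutant over control (correlation with the processed signals 0.973 and 0.991), and its column medians were 1.

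The background was corrected by normexp (offset 50) and each array normalised by loess (span 0.3) in R 4.3.3 with limma 3.58.1. Outlier-flagged spots (3.35% and 3.05%) were left out, the spots of a probe averaged, and the ratio of array 2 turned to mutant over control. Tested probes had a share over 0.5 of spots well above background in 1 group on both arrays. The brightest tested probe stood for a gene. Names were updated through RefSeq accessions of GRCm38.p6. Channel levels are log2 values after Aquantile normalization. Ratios were tested against 0 with lmFit and eBayes (1 residual and 6.32 prior degrees of freedom) and Benjamini-Hochberg adjustment over 20923 genes. The fit was tested on simulated data.

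The members and lists were chosen with earlier results of these data known, as were the motifs. Channel levels are given for Hox genes over 0.321928 from 0 (log2) the same way on both arrays, at least 1.5-fold on 1 array, or with probes of opposite sign, and beyond that rule for Hoxb5os, Evx1 and Six2, named after their values were seen. For each list of partners and regulators, genes among the 3 with the largest mean ratio are named. The name pattern matches 1 further gene, on 2 probes, that is not reported here, nor is 1 gene of the Polycomb list by name. Alternatives changed the normalization, starting signal, offset, filter, outlier spots, choice of probe and model, used the authors' deposited table, and left out each array in turn.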

Additional observations from a re-analysis of the deposited data

Results flagged for a closer look

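Hoxa5 was looked at again because its difference ran opposite ways in the pools of the 2 sexes. The log2 ratio of mutant over control was 0.71 on the female array and -0.77 on the male array. The difference between the sexes was not tested, since each sex has 1 array, and sex and dye orientation cannot be told apart.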

How the results depend on the processing

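Of 306 values of single Hox genes under 9 other settings, 293 kept their direction and side of the threshold, 3 passed it and 10 turned. Those that passed were Hoxb8, with an adjusted limma p of 0.0182 at offset 10, 0.0294 for probes above background in both groups and 0.0345 with outlier spots kept. With median centring, Hoxa2 turned to -0.096, Hoxa7 to -0.0087, Hoxc6 to -0.10, Hoxc9 to -0.055 and Hoxc10 to -0.12. With processed signals Hoxc10 was -0.0094, with the mean of a gene's probes Hoxa3 was 0.017 and Hoxa9 -0.0026, and with the authors' deposited table Hoxc8 was -0.032 and Hoxc10 -0.013. Elsewhere the adjusted limma p of Hoxb8 was 0.0904 (processed signals), 0.0905 (mean of probes), 0.165 (median centring), 0.184 (authors' deposited table) and 1.0 (no filter, 4 channels).

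The 6 genes called over all became 0 with median centring, 0 without a filter and 0 with 4 channels and no replicate block, where limma gave 853, 1076 and 428 genes at an unadjusted p under 0.05. They became 11 with processed signals, 14 with offset 10, 12 above background in both groups and 11 with outlier spots. The 3 Hox genes higher on both arrays became 1 with median centring (the cause was not tested) and 5 of 38 without a filter, which adds Hoxb1 and Hoxc13, dim genes above 0 on both arrays. On the female array alone, 22 Hox genes were lower, 12 higher and 2 past 1.5-fold, with a median ratio of -0.09. On the male array alone, 27 were lower, 7 higher and 8 past 1.5-fold, with a median of -0.36. A sign or size needed on 1 array is met more often than on both. The reported ratio pairs mutant and control within an array, and the fit of 4 channels does not. Dim probes limit Hoxb1, Hoxb13, Hoxc12 and Hoxc13.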
